A study of Mus musculus with 3 samples.

Results

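The nuclear genes of the mitochondrial respiratory chain were examined in ChIP-seq peak lists from mouse suprabasal keratinocytes, the cells of epidermis that have left the basal layer and differentiate. ChIP-seq recovers with an antibody the DNA fragments bound by a protein and sequences them. Members were all nuclear protein-coding genes of the RefSeq table whose symbol starts with Nduf, Sdha to Sdhd, Uqcr, Cox4 to Cox8 or Atp5, which gave 100 of 21887 genes. The rule used names only and no measured value. It takes in subunits, tissue-restricted isoforms, and those assembly factors that carry the Nduf or Sdh symbol (Ndufaf and Sdhaf genes). By complex, 49 members belonged to complex I, 8 to II, 8 to III, 18 to IV and 17 to V.

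The libraries came from wild-type BALB/c mice, 1 for DLX3, a homeodomain protein that regulates transcription in epidermis, hair and teeth, and 1 for H3K4me3, the trimethylated histone mark of active promoters. The IgG library of the series was not analysed here. The sample labels call the animals adult, whereas the series text speaks of neonatal skin. Each antibody has 1 library, so no value below has a replicate spread. The labels do not say how many animals entered a library, and read depth is unknown. Intervals on shares are 95% Wilson intervals and cover counting error only, and genes that share a peak are not independent. Within 1 kb of a gene end, H3K4me3 was listed at 6 of 7 keratinocyte markers (Krt5, Krt14, Krt1, Krt10, Dsp and Perp), 3 of 4 fibroblast markers (Col1a1, Col1a2, Pdgfra), and Cd68 of 4 immune, Pmel of 4 melanocyte, Kdr of 4 endothelial and Ckm of 4 muscle markers. Over the whole gene as well, the keratinocyte count was 7 of 7, with Trp63, the melanocyte count 2 of 4, with Dct, and the others were as before.

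The respiratory chain lies in the inner mitochondrial membrane. Complexes I (NADH dehydrogenase) and II (succinate dehydrogenase) feed electrons to ubiquinone, complex III (cytochrome bc1) passes them to cytochrome c, and complex IV (cytochrome c oxidase) to oxygen. Complex V, the ATP synthase, uses the resulting proton gradient to make ATP. Most subunits are encoded in the nucleus, and their promoters are textbook housekeeping promoters that often carry sites for NRF1, for ETS factors such as GABP, and for YY1. Several complex IV subunits also exist as isoforms of heart and skeletal muscle or of testis.

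The promoters shown first are those of 1 member per complex, the gene whose DLX3 peak within 1 kb had the highest score. Each runs from 250 bases before the transcription start to 50 after it, is written 5′ to 3′ on the strand of the gene, and comes from RefSeq (GRCm38.p6, the assembly of mm10). Capitals mark matches on either strand to GCATGCGC (NRF1) or the longer palindromic NRF1 site that holds these letters, CCGGAAG (ETS), AANATGGCG (YY1) or TAATTG (a homeodomain core of the DLX type).
Ndufa9 (chr6:126849095-126849394, minus strand): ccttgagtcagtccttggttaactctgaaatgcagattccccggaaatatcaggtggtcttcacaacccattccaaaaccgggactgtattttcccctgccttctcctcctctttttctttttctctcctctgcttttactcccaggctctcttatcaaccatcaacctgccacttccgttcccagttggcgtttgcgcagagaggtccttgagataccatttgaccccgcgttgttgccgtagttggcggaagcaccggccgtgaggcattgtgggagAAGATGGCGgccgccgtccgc
Sdhb (chr4:140961021-140961320, plus strand): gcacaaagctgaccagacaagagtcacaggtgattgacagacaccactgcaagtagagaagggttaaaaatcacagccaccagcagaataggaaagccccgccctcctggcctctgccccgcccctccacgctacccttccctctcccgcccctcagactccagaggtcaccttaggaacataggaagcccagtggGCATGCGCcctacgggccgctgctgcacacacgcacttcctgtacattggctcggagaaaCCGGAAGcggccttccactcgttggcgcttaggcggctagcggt
Uqcrc1 (chr9:108936398-108936697, plus strand): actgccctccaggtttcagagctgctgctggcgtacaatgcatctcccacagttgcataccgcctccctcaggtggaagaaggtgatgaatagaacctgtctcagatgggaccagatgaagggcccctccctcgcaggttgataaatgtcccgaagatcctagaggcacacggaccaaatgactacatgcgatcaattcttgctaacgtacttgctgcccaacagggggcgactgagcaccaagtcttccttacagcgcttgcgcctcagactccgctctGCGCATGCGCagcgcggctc
Cox6a1 (chr5:115348909-115349208, minus strand): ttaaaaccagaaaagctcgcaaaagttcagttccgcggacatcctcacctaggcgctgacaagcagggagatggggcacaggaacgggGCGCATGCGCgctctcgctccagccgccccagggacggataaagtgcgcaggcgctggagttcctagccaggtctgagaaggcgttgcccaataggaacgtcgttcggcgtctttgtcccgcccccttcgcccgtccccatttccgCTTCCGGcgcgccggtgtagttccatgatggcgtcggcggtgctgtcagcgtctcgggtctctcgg
Atp5d (chr10:80142025-80142324, plus strand): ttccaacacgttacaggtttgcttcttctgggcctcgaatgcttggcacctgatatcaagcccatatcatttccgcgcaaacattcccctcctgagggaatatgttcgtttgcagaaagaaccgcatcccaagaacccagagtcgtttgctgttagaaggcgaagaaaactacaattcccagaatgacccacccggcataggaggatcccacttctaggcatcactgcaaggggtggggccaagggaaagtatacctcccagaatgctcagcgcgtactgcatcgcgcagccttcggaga
The Ndufa9 promoter has a YY1 match just after the start, Sdhb an NRF1 and an ETS match, Uqcrc1 an NRF1 match after the start, and Cox6a1 an NRF1 and an ETS match. None of these letters was found in the Atp5d window, the first of its 2 RefSeq starts. No TAATTG lay in any of the 5, which says nothing of whether DLX3 binds there.

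Promoters of 4 more genes are shown as pairs of a widely expressed complex IV subunit and its muscle isoform, since the pairs differed in H3K4me3.
Cox7a2 (chr9:79759804-79760103, minus strand): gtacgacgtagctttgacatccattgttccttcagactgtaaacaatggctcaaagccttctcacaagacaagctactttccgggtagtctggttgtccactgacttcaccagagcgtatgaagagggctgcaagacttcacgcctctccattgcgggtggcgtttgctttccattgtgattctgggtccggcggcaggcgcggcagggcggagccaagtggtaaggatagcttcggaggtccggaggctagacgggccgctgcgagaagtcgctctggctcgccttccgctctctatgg
Cox7a1 (chr7:30183921-30184220, plus strand): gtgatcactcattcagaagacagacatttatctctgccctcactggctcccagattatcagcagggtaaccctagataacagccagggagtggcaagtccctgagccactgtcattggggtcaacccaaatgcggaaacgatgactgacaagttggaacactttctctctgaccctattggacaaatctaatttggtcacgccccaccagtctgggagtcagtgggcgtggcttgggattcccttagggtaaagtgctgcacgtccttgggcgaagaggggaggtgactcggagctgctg
Cox8a (chr19:7217567-7217866, minus strand): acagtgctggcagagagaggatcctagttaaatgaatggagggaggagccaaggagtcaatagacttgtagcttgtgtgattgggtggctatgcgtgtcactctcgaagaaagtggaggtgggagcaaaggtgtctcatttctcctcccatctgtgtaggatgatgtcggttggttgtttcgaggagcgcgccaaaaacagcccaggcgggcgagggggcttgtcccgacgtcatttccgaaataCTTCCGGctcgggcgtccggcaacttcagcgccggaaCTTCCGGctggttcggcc
Cox8b (chr7:140900397-140900696, minus strand): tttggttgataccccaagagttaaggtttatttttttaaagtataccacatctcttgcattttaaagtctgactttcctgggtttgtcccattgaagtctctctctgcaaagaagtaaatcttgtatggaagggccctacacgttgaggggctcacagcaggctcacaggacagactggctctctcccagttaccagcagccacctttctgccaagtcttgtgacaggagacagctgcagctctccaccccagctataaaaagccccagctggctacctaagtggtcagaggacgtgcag
The Cox8a window has 2 ETS matches and the other 3 have none of the marked letters. The ratio of observed to expected CpG was 0.833 for Cox7a2 and 0.842 for Cox8a. It was 0.333 for the muscle isoform gene Cox7a1 and 0.115 for Cox8b, against a median of 0.829 over the 87 member promoters and 0.567 over all 21263 promoters of protein-coding genes. A pair not printed here went the other way. Cox7b, which was marked by H3K4me3, had a ratio of 0.368, and its isoform Cox7b2, which was not, had 0.564.

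H3K4me3 lay at nearly every member outside the tissue-restricted isoforms. A peak with any base within 1 kb of either end of the gene span was found at 90 of 100 members (90.0%, 82.6 to 94.5), and the background over all protein-coding genes was 59.3%. The 10 without one were 6 tissue-restricted isoforms of complex IV (Cox4i2, Cox6a2, Cox7a1, Cox7b2, Cox8b and Cox8c), Ndufb4b and Ndufb4c, complex I entries with gene spans of 471 and 485 bp, and the complex IV subunits Cox5a and Cox7a2. The last pair were marked at their RefSeq starts, which lie inside longer gene spans. At Cox5a the start lies 3904 bp inside the span, under an H3K4me3 peak of 2769 bp (chr9:57520467-57523235; score 1022). At Cox7a2 it lies 11569 bp inside, under a peak of 2676 bp (chr9:79758172-79760847; score 1671). With these, 92 of 100 members were marked, 90 of the 92 that are not tissue-restricted.

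Marked members had H3K4me3 peaks of about the usual size. Each gene was given its highest-scoring peak within 1 kb, where the score is the deposited peak caller's value and is comparable only within a list. The median width was 2432 bp (interquartile range 1993 to 2924), and over all 12988 marked genes 2392 bp (1862 to 3105). The median score was 1464 (985 to 2028), against 1281 (644 to 2052) over all marked genes. Members thus showed a narrower spread of widths around a similar centre. Scores pile up at 3100, and 6 of 90 members (6.67%) stood at or above it, Atp5b, Atp5j, Ndufa13, Ndufb6, Ndufv2 and Uqcrh, beside 8.13% of all marked genes. At Ndufb6 and Ndufv2 that peak does not cover the start and lies within 1 kb of a neighbouring gene, Topors and Smim27 in the first case and Ankrd12 in the second. The peak over the Ndufb6 start was 2004 bp wide with a score of 2223, and that over the Ndufv2 start 2989 bp with a score of 2467.

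**Figure D1:**
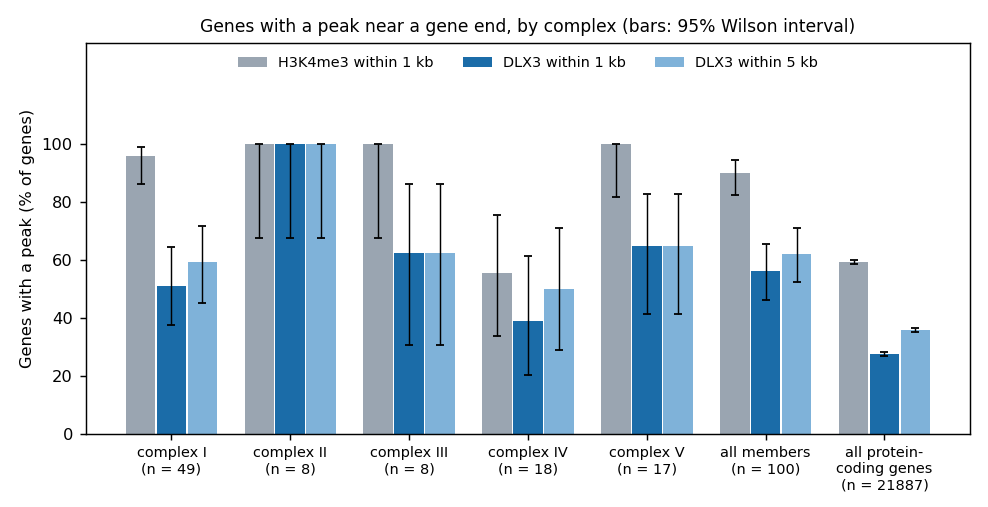
Share of genes (percent, vertical axis) with an H3K4me3 peak within 1 kb, a DLX3 peak within 1 kb and a DLX3 peak within 5 kb of a gene end, for complexes I to V, all members and all protein-coding genes. Error bars are 95% Wilson intervals. All 8 genes of complex II have a DLX3 peak, and complex IV has the lowest share of marked genes, 10 of 18.

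DLX3 peaks were found at over 50% of the members. Within 1 kb of an end, DLX3 peaks were listed for 56 of 100 members (56.0%, 46.2 to 65.3), and the background was 27.6% of all protein-coding genes. Within 5 kb the count was 62 of 100 (62.0%, 52.2 to 70.9), and the background 35.8%. Among the 90 H3K4me3-marked members, 55 had DLX3 within 1 kb (61.1%, 50.8 to 70.5), beside 45.4% of all marked genes. Within 5 kb it was 60 of 90 (66.7%, 56.4 to 75.5), beside 54.8%. The scores were moderate. The median of the highest score at each of the 56 members was 90.6 (interquartile range 71.4 to 118), and over all genes with DLX3 within 1 kb it was 95.8 (70.0 to 143). Of the 59 distinct peaks within 1 kb of members, 5 were in the top 10% of the DLX3 list by score, which begins at 187, and 58 overlapped an H3K4me3 peak (98.3%). Within 5 kb it was 75 of 82 (91.5%). Of the DLX3 peaks within 1 kb of an end of any protein-coding gene, 5185 of 5540 overlapped H3K4me3 (93.6%), and within 5 kb 6249 of 7827 (79.8%). Signal that open promoters draw whatever the antibody was not tested.

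Complex I oxidises NADH and pumps protons. Its 7 catalytic core genes were all marked by H3K4me3, and 6 had DLX3 within 1 kb (85.7%, 48.7 to 97.4), beside 45.4% of all marked genes. The DLX3 score was 204 at Ndufs7, an iron-sulphur subunit (chr10:80248632-80249660), 144 at Ndufv2 (chr17:66101233-66101822), 96.0 at Ndufs1, 95.8 at Ndufs3, 89.95 at Ndufs8 and 54.7 at Ndufv1, which binds NADH and FMN.

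Of the 34 supernumerary complex I genes, which surround the core, 15 had DLX3 within 1 kb (44.1%). Among the marked ones the share was 46.9% (30.9 to 63.6), near the 45.4% of all marked genes. The highest was Ndufa9 at 294 (chr6:126848970-126849319), centred 0.5 bp from the transcription start. Ndufa13, also known as the cell death gene Grim19, followed at 184, then Ndufa5 at 125 and Ndufb10 at 124. The Ndufa13 peak was centred at an offset of -1315.5 bp from the start, upstream, within 1 kb of Tssk6. The other 11 were Ndufb2, Ndufs5, Ndufb4, Ndufs6, Ndufa10, Ndufb6, Ndufb9, Ndufa8, Ndufb5, Ndufs4 and Ndufa6, at scores of 54.7 to 96.5. Outside 1 kb but within 5 kb, Ndufa7 and Ndufv3 had peaks of 83.75 and 87.7. Within 5 kb the share of marked supernumerary genes was 53.1%, near the 54.8% of all marked genes. The Ndufa7 peak was within 1 kb of an end of Cd320.

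The remaining 17 supernumerary genes had no DLX3 peak within 5 kb: Ndufa1, Ndufa2, Ndufa3, Ndufa4, Ndufa4l2, Ndufa11, Ndufa12, Ndufab1, Ndufb1, Ndufb3, Ndufb7, Ndufb8, Ndufb11, Ndufb4b, Ndufb4c, Ndufc1 and Ndufc2. Despite its name, the protein of Ndufa4 is now placed in complex IV. Ndufab1 encodes the mitochondrial acyl carrier protein. H3K4me3 alone ranged in this group from 1358 bp at Ndufa3 and 1451 bp at Ndufc1 to 6386 bp at Ndufa4l2. The last peak also reaches Stac3. The widest complex I peak with DLX3 was that at Ndufb10, 6138 bp, which also reaches Rps2 and Rnf151. Of the 8 complex I assembly factors, Ndufaf5 (98.95), Ndufaf4 (88.1), Ndufaf3 (84.3) and Ndufaf8 (64.8) had DLX3 within 1 kb. Ndufaf6 had a peak of 64.9 within 5 kb, and Ndufaf1, Ndufaf2 and Ndufaf7 had none. The share within 1 kb was 50% (21.5 to 78.5), an interval that holds the 45.4% of all marked genes.

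Complex II links the citrate cycle to the chain and is the only one with no subunit encoded in mitochondrial DNA. Every one of its 8 genes had both H3K4me3 and DLX3 within 1 kb (100%, 67.6 to 100). Of all marked genes 45.4% had DLX3 within 1 kb. The DLX3 score was 249 at Sdhb, the iron-sulphur subunit (chr4:140960942-140961773), and 197 at Sdha, the flavoprotein (chr13:74349903-74350566), a peak that also reaches Ccdc127. It was 104 at Sdhc, a membrane anchor, and 50.1 at Sdhd, the other anchor, where the list itself begins at 50.01. The assembly factors Sdhaf1, Sdhaf2, Sdhaf4 and Sdhaf3 had scores of 105, 77.4, 76.65 and 71.6. With only peaks at or above the median DLX3 score of 83.35, 4 of the 8 kept one, so the full count includes weak peaks. H3K4me3 was widest at Sdhd (2836 bp) and Sdhb (2624 bp) and narrowest at Sdhaf3 (1742 bp) and Sdhaf4 (1366 bp).

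Complex III had H3K4me3 at all 8 genes and DLX3 within 1 kb at 5 (62.5%, 30.6 to 86.3). This interval holds the 45.4% of all marked genes. Uqcrc1, a core protein, had the highest DLX3 score, 155 (chr9:108936298-108936997), centred 0.5 bp from its start. Uqcrq stood at 91.3, Uqcrb at 81.2, Uqcr11 at 77.6 and Uqcrfs1, the Rieske iron-sulphur protein, at 58.45. Uqcrc2, Uqcr10 and Uqcrh had none within 5 kb, although Uqcrh had the widest H3K4me3 peak of the complex, 4129 bp, shared with Lrrc41. Uqcrc2 followed at 2760 bp, and Uqcrb and Uqcrc1 were narrowest at 1631 and 1686 bp. A DLX3 peak of score 463 lay within 5 kb of Uqcr11 (chr10:80399259-80400292), but it is within 1 kb of an end of Mbd3.

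Complex IV had the lowest shares of the 5 complexes, with H3K4me3 at 10 of 18 genes (55.6%) and DLX3 within 1 kb at 7 (38.9%). Over all protein-coding genes the shares were 59.3% for H3K4me3, 27.6% for DLX3 within 1 kb and 35.8% within 5 kb. Without its 7 tissue-restricted isoforms the counts were 9 and 6 of 11, and 8 of 11 had DLX3 within 5 kb. Cox6a1, the widely expressed form of subunit 6a, had the highest DLX3 score, 163 (chr5:115348586-115349439). Cox5b stood at 116, Cox7a2l, a factor of respiratory supercomplexes, at 91.8, Cox6c at 76.65, Cox8a at 58.65 and Cox4i1 at 54.0. Cox7a2 and Cox7b had peaks of 59.6 and 60.1 within 5 kb but not within 1 kb. The Cox7a2 peak was centred 105 bp from the RefSeq start, while the Cox7b peak was within 1 kb of Atp7a. Cox5a, Cox6b1 and Cox7c had none. H3K4me3 ranged from 1331 bp at Cox7b and 1677 bp at Cox7c to 3120 bp at Cox4i1 and 3218 bp at Cox7a2l.

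Complex V had H3K4me3 at all 17 genes and DLX3 within 1 kb at 11 (64.7%, 41.3 to 82.7). This interval holds the 45.4% of all marked genes. Among the F1 genes, which form the catalytic head and central stalk, Atp5d had the highest DLX3 score within 1 kb of an end, 215, a peak at the far end of the span that is also within 1 kb of Midn (chr10:80145606-80146444). Another DLX3 peak, of score 221, covered its start (chr10:80141829-80142711), which lies 3577 bp inside the span. In all 6 DLX3 peaks lay within 5 kb of Atp5d. Atp5c1 stood at 155, Atp5b, the catalytic beta subunit, at 92.9 and Atp5a1, the alpha subunit, at 72.0. Atp5e had none. Of the stalk and membrane genes, Atp5o had a score of 164 (chr16:91931308-91931909), and Atp5g2 and Atp5g1, which encode the proton-carrying c subunit, had 153 and 107, while Atp5g3, another c subunit gene, had none. Atp5mpl (93.2), Atp5j2 (70.8), Atp5j (68.4) and Atp5pb (58.4) also had DLX3, and Atp5h, Atp5k, Atp5l and Atp5md did not. H3K4me3 was widest at Atp5g2 (4409 bp) and Atp5h (4187 bp) and narrowest at Atp5k (1869 bp) and Atp5mpl (1930 bp).

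Across the complexes, DLX3 was listed at most core genes. Within 1 kb it was found at 16 of 19 core genes (84.2%, 62.4 to 94.5), 32 of 69 other subunit genes (46.4%, 35.1 to 58.0) and 8 of 12 assembly factor genes (66.7%, 39.1 to 86.2). The background was 27.6% of all protein-coding genes and 45.4% of the marked ones. All core and assembly factor genes were marked. Of the marked other subunit genes, 31 of 59 had DLX3 (52.5%, 40.0 to 64.7), an interval that holds the share of all marked genes. The core class holds the catalytic complex I genes, Sdha to Sdhd, Uqcrc1, Uqcrc2, Uqcrfs1 and the F1 genes of complex V. It holds none of complex IV, whose catalytic subunits are encoded in mitochondrial DNA. Nor does it hold Cyc1, the cytochrome c1 gene of complex III, whose symbol is outside the rule and which had no DLX3 peak. The 69 include the 8 tissue-restricted isoforms, of which 1 had DLX3. Uqcrc2 and Atp5e were among the core genes without it. With peaks at or above the median score the counts were 12 of 19, 17 of 69 and 4 of 12, beside 16.7% of all protein-coding genes.

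**Figure D2:**
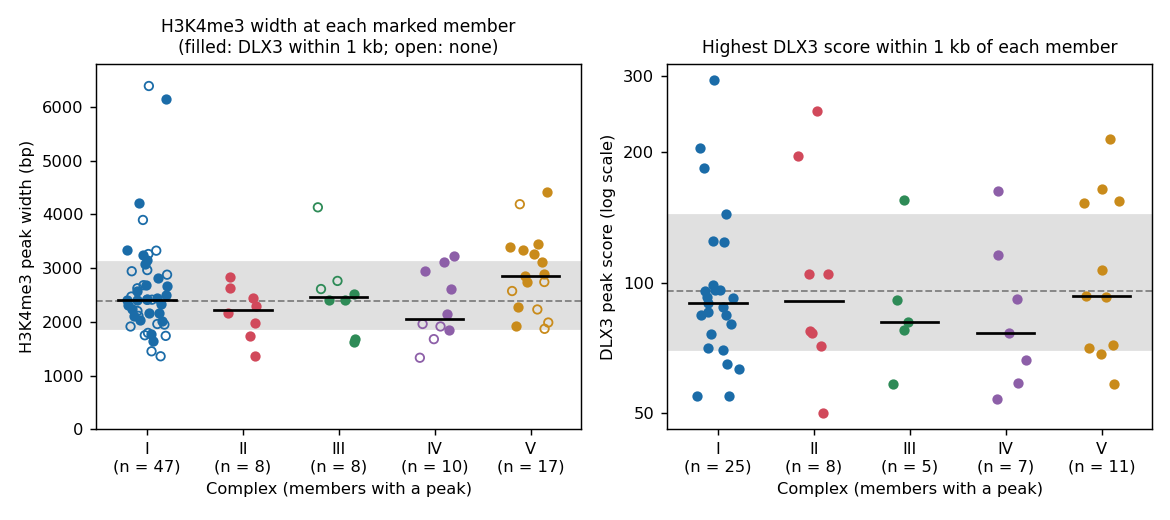
Left, width in bp of the H3K4me3 peak of each marked member by complex, with filled points for members that have DLX3 within 1 kb and open points for those without. Right, highest DLX3 score within 1 kb of each member (log axis). Black lines are medians of the members, and the dashed line and grey band are the median and interquartile range over all protein-coding genes with such a peak. Complex V members centre at 2858 bp and complex IV members at 2050.5 bp, and most DLX3 scores fall inside the band.

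DLX3 peaks at these genes sat almost on the transcription start. The RefSeq promoter table held 82 of the 100 members. Those it did not hold included Atp5a1, Atp5mpl, Cox4i1, Cox4i2, Cox6a2, Cox6c, Cox8c, Ndufa2, Ndufa4l2, Ndufaf6, Ndufb4c, Ndufb9, Ndufs1, Sdhc, Uqcrb, Uqcrc2 and Uqcrq. H3K4me3 covered a start in 78 of the 82 (95.1%, 88.1 to 98.1), and the background was 59.6%. A DLX3 peak covered a start in 47 of 82 (57.3%, 46.5 to 67.5), and the background was 25.2%. Where H3K4me3 covered the start, DLX3 covered it too in 46 of 78 members (59.0%, 47.9 to 69.2), beside 41.8% of all such genes. In 47 of the 78, a DLX3 peak lay within 1 kb of the start. The median offset of its centre was -26.0 bp, that is upstream (interquartile range -83.5 to 26.5), and within 100 bp of the start in 31 of 47 (66.0%). Over all 4854 such genes the median offset was -57.5 bp (-158.5 to 30), and 48.1% were within 100 bp.

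H3K4me3 reached farther into the gene than away from it. Over the 78 starts it extended a median of 925 bp upstream (interquartile range 686 to 1350) and 1373.5 bp downstream (1187 to 1604), and the downstream arm was the longer in 60 of 78 (76.9%). Over all 10420 genes with H3K4me3 over a start the medians were 893 and 1386.5 bp, and 78.5% had the longer arm downstream. The members were close to the background in this. The longest upstream arms were at Atp5g2 (3052 bp), Uqcrh (2752 bp), Atp5h (2627 bp) and Ndufa13 (2316 bp). All but Atp5g2 have another gene starting there on the opposite strand. Ndufb10 had the longest downstream arm, 5584 bp.

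**Figure D3:**
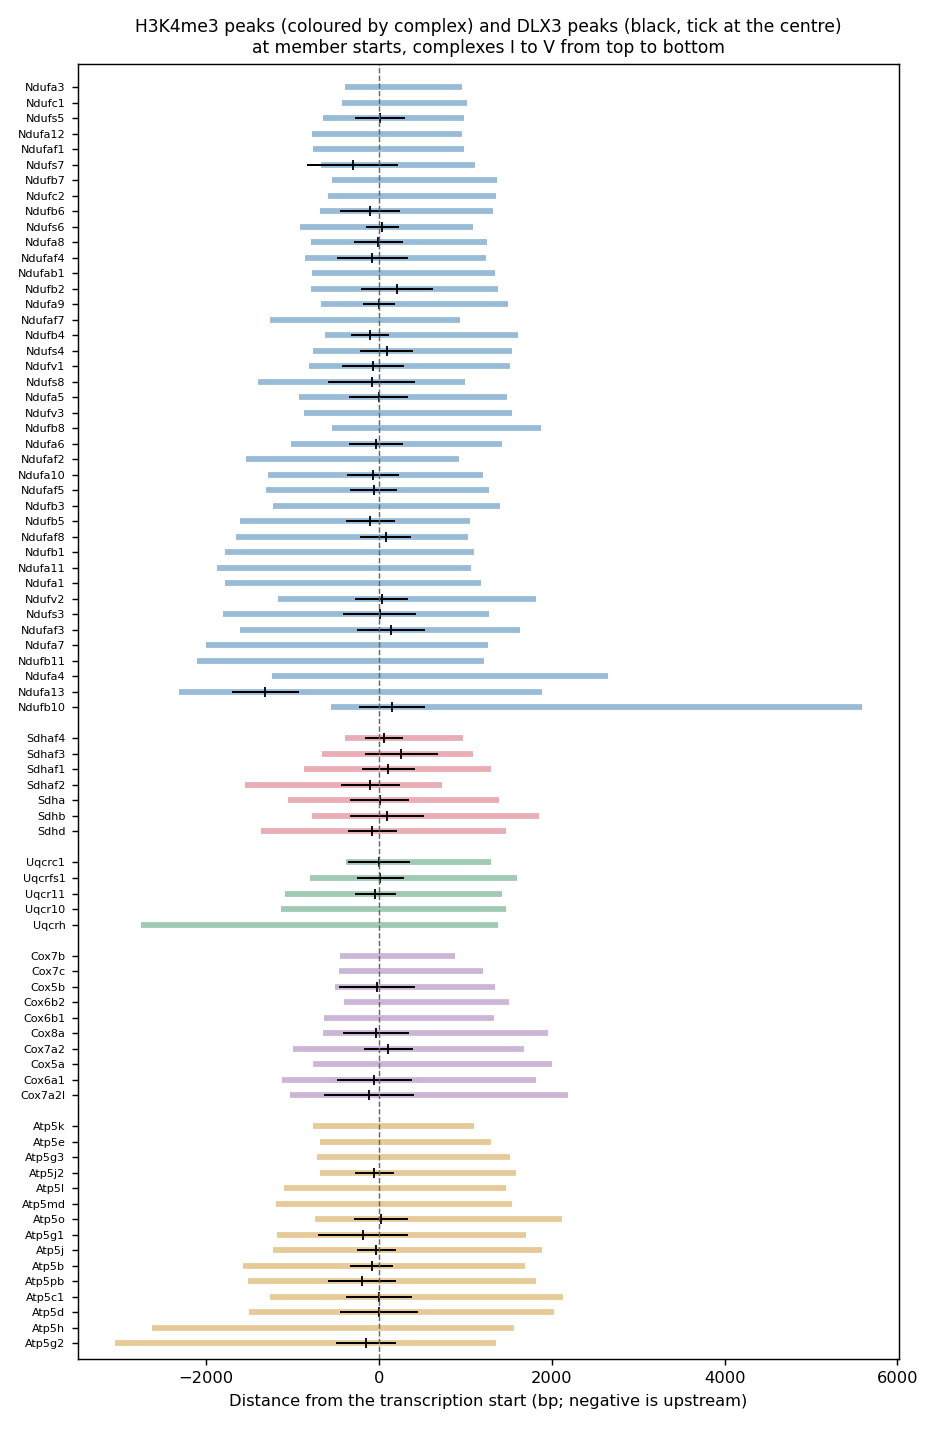
H3K4me3 peaks (coloured bars) and the highest-scoring DLX3 peak within 1 kb (black bars, tick at the centre) at the 78 member starts under H3K4me3, as distance in bp from the transcription start, negative upstream. Complexes I to V run from top to bottom, ordered by width. The DLX3 centres line up near 0, 31 of 47 within 100 bp, with Ndufa13 at -1315.5 bp set apart.

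Broader and higher-scoring H3K4me3 peaks hold DLX3 more often in the whole list, so the members were set beside all marked genes of like H3K4me3. In the narrowest of 4 equal width groups (380 to 1862 bp) 7 of 14 members had DLX3 within 1 kb, beside 23.1% of all marked genes. In the broadest group (3106 to 18614 bp) 13 of 19 did, beside 62.3%. Between these groups the share of members moved from 50% to 68.4% while that of all genes moved from 23.1% to 62.3%. By H3K4me3 score, 0 of 4 members in the lowest of 4 groups had DLX3, beside 14.6% of all genes. In the next 3 groups the members stood at 17 of 35 (48.6%), 21 of 28 (75%) and 17 of 23 (73.9%), beside 41.0%, 57.2% and 69.0%. The 55 marked members with DLX3 had a median H3K4me3 width of 2446 bp and the 35 without it 2407 bp. Over all marked genes these medians were 2690 and 2139 bp. The median H3K4me3 score was 1555 with DLX3 and 1172 without it among members, and 1752 and 874 over all marked genes.

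**Figure D4:**
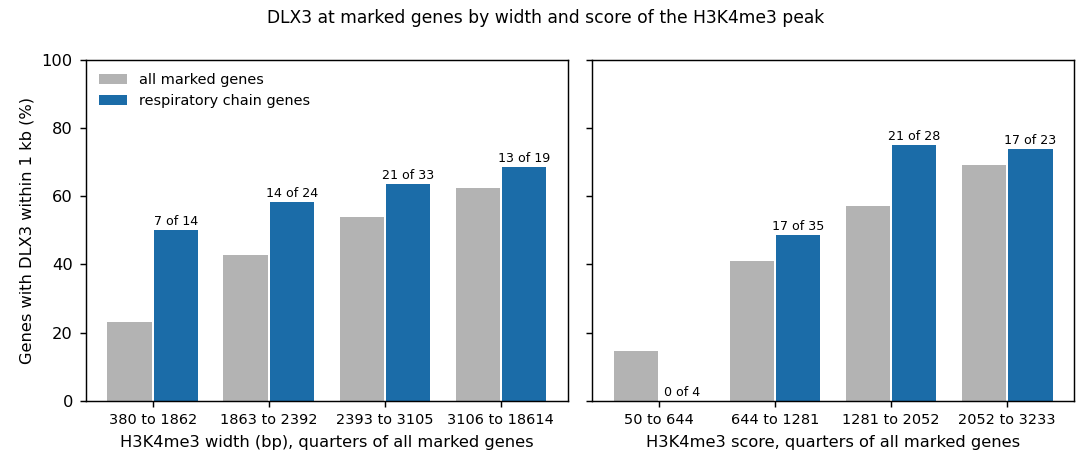
Share of H3K4me3-marked genes with DLX3 within 1 kb (percent), for all marked genes (grey) and respiratory chain genes (blue), in 4 equal groups of all marked genes by H3K4me3 width in bp (left) and score (right). Numbers above the blue bars give members with DLX3 of members in the group. The members stand at 50% in the narrowest group and 68.4% in the broadest.

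Many members share their promoter region with another gene. The H3K4me3 peak lay within 1 kb of an end of another protein-coding gene at 47 of 90 marked members (52.2%, 42.0 to 62.2), beside 29.4% of all marked genes. A gene on the opposite strand started within 1 kb upstream of 23 of the 82 members with a promoter entry (28.0%), all 23 of them marked. Among all genes with an entry the share was 8.48%, and among the marked ones 13.7%. Partners included Gabpa, which encodes the DNA-binding subunit of GABP, 148 bp from Atp5j, the cytosolic ribosomal protein gene Rps28, 10 bp from Ndufa7, the mitochondrial ribosomal protein gene Mrpl47, 308 bp from Ndufb5, and Timm8b, which encodes a chaperone of mitochondrial protein import, 52 bp from Sdhd. Among marked members with a promoter entry, DLX3 within 1 kb was found at 13 of the 23 with such a partner (56.5%) and 33 of the 53 without (62.3%). Over all marked genes with a promoter entry these shares were 64.0% and 43.6%. Of the 56 members with DLX3 within 1 kb, 33 had a peak near no other gene end. At 23 each peak also lay within 1 kb of another gene, so that peak cannot be given to the member alone. The same count was not made over all genes with DLX3, so 23 cannot be called many or few.

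Promoter letters of the known mitochondrial factors were searched in the 87 promoters of the 82 members, on both strands. The full NRF1 site was in 7 (8.05%), against 1.33% of all 21263 promoters and 2.0% of the 13378 of genes with H3K4me3 over a start. The shorter NRF1 letters, which lie inside the full site, were in 12 (13.8%, against 3.52% and 5.09%), the ETS letters in 22 (25.3%, against 11.6% and 16.8%) and the YY1 letters in 12 (13.8%, against 3.12% and 4.72%). The GC box GGGCGG was in 40 (46.0%, against 46.2% and 65.2%) and CCAAT in 36 (41.4%, against 38.2% and 37.3%). TCAAGGTCA, the letters bound by oestrogen-related receptors, was in 2 (2.30%, against 0.334% and 0.239%), at Atp5g3 and Sdhd. TAATTG was in 4 (4.60%, against 6.83% and 4.52%) and the AP-1 letters TGANTCA in 7 (8.05%, against 6.99% and 4.72%). The 4 with TAATTG were Atp5b, Cox6b1, Ndufaf8 and Ndufs8. TATAAA was in 10 (11.5%, against 12.6% and 6.65%).

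Split by DLX3 within 1 kb of a start, the short NRF1 letters were in 9 of 52 member promoters with DLX3 and 3 of 35 without. YY1 letters likewise were in 9 of 52 and 3 of 35, and ETS letters in 13 of 52 and 9 of 35. TAATTG was in 3 of 52 and 1 of 35. TATAAA was in 2 of 52 with DLX3 (3.85%) and 8 of 35 without (22.9%), the 8 including Cox7b2 and Cox8b, which have no H3K4me3. Both windows of Ndufa7 are among the 8, since promoters and not genes were counted. Median GC content was 59.0% with DLX3 and 57% without, against 61.7% for all genes with H3K4me3 over a start. These are small counts, and a match of letters is no evidence of binding.

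Most tissue-restricted isoforms had no H3K4me3, whereas their widely expressed partners did. Of 8 such genes, 2 had H3K4me3 within 1 kb, and both of those peaks also lay within 1 kb of another gene. They were Cox6b2, a testis form (score 293, shared with Fam71e2), and Ndufa4l2, a hypoxia-responsive form (score 699, shared with Stac3). The nearest H3K4me3 peak lay 7244 bp from Cox7a1, 13893 bp from Cox4i2, 15981 bp from Cox8b, 20003 bp from Cox8c, 30253 bp from Cox6a2 and 109154 bp from Cox7b2. Of the partners, Cox4i1 had an H3K4me3 score of 2664, Ndufa4 of 2276, Cox6a1 of 2129, Cox7a2 of 1671 over its start, Cox8a of 1429, Cox6b1 of 1170 and Cox7b, on chromosome X, of 435. All 7 partners were thus marked. Cox7a1, a heart and skeletal muscle form, was the only member with a DLX3 peak within 1 kb that met no H3K4me3. The peak (chr7:30183995-30184285; score 66.4; 291 bp wide) was centred just upstream of its start (offset -31 bp). Of the 4 muscle markers only Ckm had H3K4me3 within 1 kb, and the part of other cells in these peaks was not tested.

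Other genes of mitochondrial energy metabolism were counted in lists of their own. The background for DLX3 within 1 kb was 27.6% of all protein-coding genes and 45.4% of the marked ones. Of 21 cytochrome c oxidase assembly genes, all had H3K4me3 and 12 had DLX3 within 1 kb (57.1%), led by Coa7 (333) and Cox18 (137). Among 16 genes of the citrate cycle and pyruvate dehydrogenase, all were marked and 7 had DLX3 (43.75%, near the share of all marked genes), led by Idh3a (127) and Suclg1 (123). Of 11 assembly genes of complexes I and V outside the symbol rule, 10 were marked and 5 had DLX3 (45.5%), with Ecsit (204) and Tmem126b (142) highest. Of 9 genes of cytochrome c, cytochrome c1 and complex III assembly, 8 were marked and 5 had DLX3 (55.6%). Cyc1, the gene of the complex III subunit cytochrome c1, had H3K4me3 (2640 bp, score 2695) but no DLX3 peak within 5 kb. Cycs, the somatic cytochrome c gene, had a score of 173 and Lyrm7 of 142, and the testis cytochrome c gene Cyct had neither peak. Among 17 regulators of mitochondrial genes and genes of mitochondrial DNA replication, 16 were marked and 13 had DLX3 (76.5%, 52.7 to 90.4). They included Polg2 (163), Ppargc1b (158), Esrra (154), Nrf1 (125), Yy1 (122), Tfam (115) and Gabpa (68.4). The Gabpa peak is the one at Atp5j. Their median H3K4me3 width was 3089.5 bp.

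Among ribosomal protein genes, other housekeeping genes, 42 of 78 mitochondrial ones had DLX3 within 1 kb (53.8%, 42.9 to 64.5), led by Mrpl45 (455) and Mrpl2 (264). Of 81 cytosolic ones 37 did (45.7%, 35.3 to 56.5). The intervals of both overlap that of the respiratory chain genes. Among marked genes the shares were 54.5% for mitochondrial and 47.4% for cytosolic ribosomal protein genes, beside 45.4% of all marked genes. The median H3K4me3 width was 2126 bp at mitochondrial and 3083 bp at cytosolic ribosomal protein genes, with 2432 bp at the respiratory chain between them.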

How the data were processed

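The peak lists of the DLX3 and H3K4me3 libraries, 1 each of suprabasal keratinocytes, were used as deposited by the authors. The submitters' processing notes name Bowtie 1.1.2, MACS 1.4.2, HOMER and mm10. For their steps and settings, the control library and the number of reads, the sources used here give nothing, so depth is unknown. The value of each peak is the deposited score of the authors' peak caller, used only to rank peaks within a list. The IgG library was not analysed here.

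Gene spans came from the RefSeq table (GRCm38.p6). A gene was called when a peak had at least 1 bp within 1 kb (or, for DLX3, 5 kb) of either span end. The highest-scoring peak gave its width and score. Starts came from the RefSeq promoter table. Shares carry 95% Wilson intervals. With 1 library per antibody no test was made. By rule, values were named for the 4 highest DLX3 scores and the 2 widest and 2 narrowest H3K4me3 peaks of each complex, members without H3K4me3 or with DLX3 only within 5 kb, core genes, isoform pairs and the 2 highest DLX3 scores of each further list. Other members, and Esrra, Nrf1, Yy1, Tfam, Gabpa, Cyc1 and Cyct, were named after their values were seen. The members and lists were chosen with earlier results of these data known. Alternatives were score, window, landmark and overlap settings. The overlap script, in Python 3.11.15 with numpy 2.4.6 and scipy 1.17.1, recovered all planted overlaps on simulated data. Results for some items are not reported here.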

Additional observations from a re-analysis of the deposited data

How the results depend on the processing

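A count was called unchanged within a factor of 1.5 of the reported one. A median was called unchanged within 2287 to 2623 bp for width and 1206 to 1711 for score. Of 45 recomputed summary values, 36 stayed within these wide bounds. These covered other windows, peak centres, transcription starts alone, starts and span ends together (chosen after seeing the data), and members without assembly factors or tissue-restricted isoforms. Some of these settings could not have moved a count. Leaving out assembly factors or tissue-restricted isoforms removes too few genes to pass the bound, and adding starts to span ends can only raise a count. All 9 that moved came from keeping only higher-scoring peaks. With peaks at or above the median score of their list, 33 members had DLX3 within 1 kb (16.7% of all genes did) and 36 within 5 kb (22.1%), and 39 of 47 DLX3 peaks near members overlapped an H3K4me3 peak of that class (83.0%, against 91.5% with all peaks). With the top 20% of peaks, 25 members had H3K4me3 within 1 kb (17.6% of all genes), 12 had DLX3 within 1 kb (7.38%) and 13 within 5 kb (10.02%), and 8 of 20 DLX3 peaks overlapped an H3K4me3 peak of that class (40%). Here both lists were reduced. The median H3K4me3 width was then 2938 bp and the median score 2502, since only high-scoring peaks remain. Of 267 values for single genes 6 moved, 4 with starts as landmark (Atp5d width and DLX3 score, Ndufb6 and Ndufv2 widths) and 2 with peak centres (the same Ndufb6 and Ndufv2 widths). No paired analysis was possible because each antibody has 1 library and no replicate number.

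The limits are the single library per antibody, the unknown depth, peaks near 2 genes at once, and the deposited score threshold, below which a missing peak is not evidence of missing binding.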

Other observations

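The DLX3 peak at Ndufa9 was both narrow and high. It was 350 bp wide with a score of 294, and of the 1091 DLX3 peaks that were as narrow or narrower none scored higher. Their median score was 55.1.

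The 3 members on chromosome X, Ndufa1, Ndufb11 and Cox7b, were all marked by H3K4me3, with scores of 1172, 835 and 435, and none had DLX3 within 1 kb. Of all marked genes on that chromosome, 62 of 390 (15.9%) had DLX3 within 1 kb, beside 45.4% of marked genes in the whole genome.

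The member promoters had a median ratio of observed to expected CpG of 0.829 and a median GC content of 58.7%. Over all promoters of genes with H3K4me3 over a start these values were 0.762 and 61.7%, so that the members had the higher CpG ratio at the lower GC content. NRF1 or ETS letters were in 29 of the 87 member promoters (33.3%), in 20.8% of those of all genes with H3K4me3 over a start, and in 14.4% of all promoters.

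Members whose H3K4me3 peak also reached another gene had a median width of 2740 bp and DLX3 at 27 of 47 (57.4%). Members with a peak of their own had 2162 bp and DLX3 at 28 of 43 (65.1%). Over all marked genes 45.4% had DLX3 within 1 kb. The split by shared peaks was not made there, so it cannot be called a trait of the members.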
